A study of Mus musculus with 62 samples.

Results

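The muscle described here comes from the mock-injected mice (Con) of a melanoma cachexia time course, and its 20 libraries are 20 of the 62 in the series. They were chosen by label alone, as every mock library of weeks 2, 4, 6 and 8 after injection, with 5 libraries in each week. The mice were female and 2 months old at injection, so the weeks span young adult life, and the tissue was gastrocnemius, the main calf muscle. A further 20 libraries from mice given melanoma cells that do not cause cachexia (NCAC, 5 in each week) served as a look at the same weeks in other animals. The 22 libraries from mice given cachectic melanoma cells (CAC) were used for a range of spread. They also entered the alternative fit on all 62 libraries and the factors of median-ratio scaling. The sample labels name the strain as C57BL/6J, whereas the design text of the series names NCI Ath/nude mice, and the treatment tag names cachectic cells for every library. Groups were therefore taken from each sample's description. The labels and the design text name neither the content of the mock injection nor the hour of dissection or any processing batch, so a week and whatever was handled together in that week cannot be told apart. The protocol calls the replicates biological without saying that each is a separate mouse, so p-values measure the spread between these samples. The question asked of the mock libraries is how far normal muscle differs between weeks and between libraries of the same week.

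Gastrocnemius of the mouse is a fast muscle, in which most fibres make the IIB myosin heavy chain encoded by Myh4, fewer make the IIX (Myh1) or IIA (Myh2) chain, and a small slow part makes the type I chain (Myh7). Whole muscle RNA also carries RNA of blood vessels with their smooth muscle, nerve, fat and resident immune cells. Muscle keeps its own circadian clock, in which the activators encoded by Arntl (BMAL1) and Clock drive Per, Cry and Nr1d1 genes that feed back on them.

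Expression was given as TPM, a transcript level scaled for transcript length and to a fixed total per library. The steps between low values put an estimated 43.4 to 47.5 M reads behind each Con library. Correlations of log2(TPM + 1) between Con libraries lay between 0.973 and 0.992. The muscle label held against its defining genes, with Myh4 at 9898 to 16394 TPM in all 20 libraries. Summed levels of 8 T cell markers were 0.0781 to 6.07 TPM, those of 7 B cell and plasma cell markers 24.1 to 181 TPM, and those of 5 melanocyte and melanoma markers 0.0384 to 1.59 TPM.

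Several libraries stood apart in genes of other tissues. Week 6 replicate 1 held keratin genes of skin, with 5 keratinocyte markers summing to 828 TPM, against a median of 1.97 TPM over the week 6 libraries. Week 8 replicate 1 held immune genes, with the MHC class II gene H2-Eb1 at 114 TPM, against 11.3 to 28.0 TPM in the other week 8 libraries, and the immunoglobulin light chain gene Igkc at 67.3 TPM, against 0.548 to 2.05 TPM. Week 2 replicate 1 held 0.658 TPM of Myh8, the perinatal myosin heavy chain, which lay between 44.0 and 107 TPM in the other 19 libraries. Of the NCAC libraries, 5 of 20 were also under 1 TPM for Myh8. Counts of genes are given below with and without the libraries of weeks 6 and 8 that carried skin or lymphoid genes.

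No gene changed steadily from week 2 to week 8 at an adjusted p under 0.05. Genes were tested where they reached 1 TPM in at least 5 Con libraries, which left 11527, with limma on log2(TPM + 1) and Benjamini-Hochberg adjustment over all of them. Week 8 against week 2 gave 0 called genes (0% of those tested), with 826 at an unadjusted p under 0.05 and a lowest adjusted p of 0.150. The straight-line trend over weeks gave 0 (0%), with 1402 at an unadjusted p under 0.05 and a lowest adjusted p of 0.0617. Leaving out week 2 replicate 3 gave 6 genes for the trend, week 4 replicate 5 gave 3, and week 2 replicate 1, week 6 replicate 3 and week 8 replicate 4 gave 1 each, while week 8 against week 2 gave 1 gene without week 6 replicate 3. With limma's array weights, which give less weight to noisier libraries, 4 genes were called for week 8 against week 2 and 19 for the trend. On simulated data with these library spreads, 78.1% of 73 changes of 1.5-fold and 98.1% of 54 changes of 2-fold between weeks 8 and 2 were called. Those data also held 73 changes of 4-fold, and the rates apply to that number of changed genes. Recovery with fewer changed genes was not tested, so the rates set no limit on changes in the muscle libraries. Week 4 against week 2 and week 8 against week 6 gave 0 called genes each (0%), with 784 and 791 at an unadjusted p under 0.05.

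The gene nearest to a steady trend was Gpx3, which encodes a secreted glutathione peroxidase and lies on mm10 chr11:54902453-54910377. Gpx3 was at 355, 278, 201, 218 and 212 TPM at week 2, at 312, 296, 230, 354 and 359 TPM at week 4, at 393, 427, 300.0, 432 and 581 TPM at week 6 and at 414, 769.5, 524, 369.6 and 644 TPM at week 8. All week 8 libraries lay above all week 2 libraries, and neighbouring weeks overlapped. Its slope was 0.18 per week on the log2 scale (SE 0.0308; limma adjusted p = 0.0617), and week 8 stood 1.08 above week 2 (SE 0.204; limma adjusted p = 0.197). Its slope had an adjusted p between 0.0153 and 0.131 over the 20 fits that each left out 1 library. Across the 4 weeks together it passed the F test (limma adjusted p = 0.0259), though not without week 2 replicate 3, week 6 replicate 1 or week 8 replicate 5, where the adjusted p reached 0.0547. Of 10 alternatives other than leaving out 1 library, 5 also ended that call.

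Other genes near the trend threshold differed by smaller amounts. Ficd, which encodes an enzyme that modifies the chaperone BiP, was at 9.06 to 10.3 TPM in week 8 and at 7.29 to 8.03 TPM in week 2 (slope 0.05 per week; limma adjusted p = 0.0716). Eif3m, a translation initiation factor subunit, had a slope of 0.04 (limma adjusted p = 0.0975) and Kcnq5, a potassium channel subunit, one of 0.12 (limma adjusted p = 0.0975). Hacd1, an enzyme of very long chain fatty acid synthesis in muscle, was at 41.0 to 47.5 TPM in week 8 and 52.8 to 67.5 TPM in week 2 (slope -0.09; limma adjusted p = 0.0975). Olfr78, an odorant receptor family gene, had a slope of -0.10 (limma adjusted p = 0.0975), and Susd5 one of -0.10 (limma adjusted p = 0.0639).

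The weeks did differ from each other without a steady trend. An F test over the 4 weeks called 287 genes (2.49% of 11527; limma adjusted p under 0.05; 2063 at an unadjusted p under 0.05). Of these, 236 were highest in week 6, 185 were lowest in week 4 and 79 were lowest in week 2. Between neighbouring weeks, calls were made in week 6 against week 4, where 728 genes were called (6.32%), 700 higher in week 6 (6.07%) and 28 lower (0.243%). The libraries of weeks 6 and 4 did not overlap for 602 genes that were higher (5.22%) and 32 that were lower (0.278%) in week 6. The week accounted for 22% of the sum of squares over all genes, against 15.8% when weeks do not differ.

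These counts moved with single libraries and with the scaling. The F test called 62 genes without week 6 replicate 1, 78, 80 and 82 without week 4 replicates 1, 4 and 5, and 464 without week 4 replicate 2. It called 158, 139 and 157 without week 2 replicates 1, 3 and 5, 154, 108 and 162 without week 6 replicates 2, 3 and 5, and 107, 189, 170 and 151 without week 8 replicates 1, 2, 3 and 5. For week 6 against week 4 the count was 211, 373 and 346 without week 4 replicates 1, 4 and 5, and 279 and 296 without week 6 replicates 1 and 3. With both libraries of skin or lymphoid genes left out, the F test called 6 genes and week 6 against week 4 called 117, 109 higher and 8 lower. With median-ratio scaling the F test called 27 and week 6 against week 4 called 171, 124 higher and 47 lower. With the weeks 6 and 4 fitted alone 0 genes were called, and the genes named below as called then had an adjusted p of at least 0.0667.

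Smooth muscle contractile genes were lower in week 6 than in week 4, and the list members Acta2, Cnn1, Myh11 and Tagln had the 4 largest changes of the 28 genes that fell. The smooth muscle marker list holds 5 genes. Of these, 4 fell in week 6 against week 4 (0.243% of all genes fell), 0 rose and 1 was not called. The same 4 passed the F test over weeks, against 2.49% of all tested genes. The list's median change was -0.98, against 0.06 over all tested genes. It stood at -0.59 in NCAC muscle, against -0.03 over all tested genes. The Con fall of 4 members held with median-ratio scaling. It held for 2 members without the libraries of skin or lymphoid genes, where Acta2 differed by -1.05, Myh11 by -0.87, Tagln by -0.89 and Cnn1 by -1.02 (limma adjusted p = 0.0417, 0.0466, 0.0527 and 0.0684). It held for 3 among genes of at least 5 TPM, where Cnn1 was too low to be tested, and for 0 with both weeks fitted alone.

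The promoters of Myl9, the regulatory light chain gene of smooth muscle myosin, and of Acta2, smooth muscle actin, are printed. Both genes were among those that fell, and promoters of others that fell are not shown. Each run covers 250 bases before to 50 after the start of the RefSeq transcript, 5′ to 3′ on the gene's strand (GRCm38.p6). Capitals mark a CArG box, the element bound by serum response factor in many contractile genes, searched on both strands as its strict consensus with no mismatch. The windows are chr2:156775214-156775513 on the plus strand for Myl9 and chr19:34255324-34255623 on the minus strand for Acta2.
Myl9: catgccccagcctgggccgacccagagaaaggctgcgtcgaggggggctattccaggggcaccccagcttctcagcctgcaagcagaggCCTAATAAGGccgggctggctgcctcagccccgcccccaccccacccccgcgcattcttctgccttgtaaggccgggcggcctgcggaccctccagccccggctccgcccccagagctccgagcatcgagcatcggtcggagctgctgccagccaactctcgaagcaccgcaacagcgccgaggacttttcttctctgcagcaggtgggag
Acta2: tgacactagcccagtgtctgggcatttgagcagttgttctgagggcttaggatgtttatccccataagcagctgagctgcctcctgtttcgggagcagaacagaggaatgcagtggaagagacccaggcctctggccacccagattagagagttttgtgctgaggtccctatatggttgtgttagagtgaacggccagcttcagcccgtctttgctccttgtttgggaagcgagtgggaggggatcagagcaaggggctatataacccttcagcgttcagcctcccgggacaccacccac
The Myl9 window held 1 exact match, which starts 161 bases before the transcript start. The Acta2 window held no exact match in these 300 bases, and its nearest stretches were 1 base off. Of 7 smooth muscle genes looked for, 5 had a window, of which 1 held an exact match and 2 held a stretch with at most 1 mismatch. Those 2 are the printed windows, so the other windows with a search result are the ones without such a stretch. An exact match was present in 535 of 32851 mouse promoter windows of the same length, or 1.63%, and a stretch with at most 1 mismatch in 6936, or 21.1%.

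Acta2 (chr19:34241090-34255590) was at 63.2, 71.4, 44.7, 75.9 and 51.6 TPM at week 2, at 119, 82.6, 48.2, 73.4 and 63.8 TPM at week 4, at 24.5, 28.5, 46.0, 38.5 and 30.7 TPM at week 6 and at 35.9, 41.9, 30.3, 26.5 and 26.3 TPM at week 8. Every week 6 library lay below every week 4 library, and every week 8 library lay below every week 2 library. The week 6 level was 33.6 ± 8.58 TPM and the week 4 level 77.4 ± 26.6 TPM (SD, n = 5), a log2 difference of -1.15 (SE 0.211; limma adjusted p = 0.00755). The week 8 to week 2 difference was -0.91 (SE 0.211; limma adjusted p = 0.242).

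Tagln, which encodes the actin-binding protein transgelin (chr9:45929619-45936058), followed the same order of weeks. It was at 57.2, 51.4, 33.2, 70.2 and 43.6 TPM at week 2, 99.2, 62.5, 42.4, 77.1 and 57.1 TPM at week 4, 25.6, 31.2, 40.9, 36.1 and 31.5 TPM at week 6 and 27.2, 31.8, 24.1, 21.7 and 25.8 TPM at week 8. Weeks 6 and 4 did not overlap, and the difference was -0.97 (SE 0.199; limma adjusted p = 0.0112). Without the libraries of skin or lymphoid genes the adjusted p was 0.0527.

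Myh11, the smooth muscle myosin heavy chain (chr16:14194535-14291372), was at 5.74 to 11.3 TPM in week 6 and at 12.9 to 24.1 TPM in week 4, with no overlap (log2 difference -0.98, SE 0.193; limma adjusted p = 0.00996). It was at 5.03 to 8.21 TPM in week 8 and at 8.69 to 18.1 TPM in week 2. Cnn1, calponin (chr9:22099216-22109630), was at 0.505 to 0.988 TPM in week 6 and at 1.34 to 5.51 TPM in week 4 (log2 difference -1.07, SE 0.258; limma adjusted p = 0.0193). The Cnn1 call was lost without week 4 replicate 1, week 4 replicate 4 or week 6 replicate 1, with adjusted p up to 0.0595. Des (desmin), the list member that skeletal fibres also make at a high level, was at 1154 to 1822 TPM in week 6 and at 1291 to 1751 TPM in week 4 (log2 difference -0.12; limma adjusted p = 0.612).

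Genes off the list shared this pattern. Mylk, Tbx2 and Susd5 were named by rule, among the lowest p-values of the F test. Myl9, Ppp1r14a, S1pr3, Gja4 and Mrvi1 were chosen after their values were seen. Myl9 was at 37.7 to 48.6 TPM in week 6 and at 65.6 to 123 TPM in week 4 (log2 difference -0.88, SE 0.151; limma adjusted p = 0.00717). Mylk, the kinase that phosphorylates that light chain, differed by -0.65 (limma adjusted p = 0.00755), and Ppp1r14a, which encodes an inhibitor of myosin phosphatase, by -0.73 (limma adjusted p = 0.00755). Tbx2, a T-box transcription factor, differed by -0.53 and Susd5 by -0.51 (limma adjusted p = 0.00717 for each). S1pr3, a sphingosine-1-phosphate receptor of vessels, fell by 0.62 and Gja4, the gap junction protein connexin 37, by 0.55. Mrvi1, a partner of the cyclic GMP kinase of smooth muscle, fell by 0.33. S1pr3, Gja4 and Mrvi1 were not followed under the alternatives. Of the 5 endothelial markers 0 were called in week 6 against week 4, while 1 was lower in week 6 with no overlap. Of all tested genes, 0.278% were lower with no overlap. The summed level of the endothelial markers was 95.0 to 113 TPM in week 6 and 93.9 to 124 TPM in week 4. Lists of other cell types had median changes of -0.58 for Schwann cell, -0.51 for red cell, 0.50 for macrophage, 0.38 for adipocyte and 0.33 for fibroblast markers, with 0 members called in each. The summed Schwann cell level was 64.3 to 295 TPM in week 6 and 85.0 to 448 TPM in week 4, and that of the macrophage markers 45.7 to 109 TPM in week 6 and 31.2 to 72.4 TPM in week 4. Their part in the smooth muscle result was not tested. Fewer smooth muscle cells in the dissected tissue and less RNA per cell cannot be told apart in whole muscle.

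**Figure D1:**
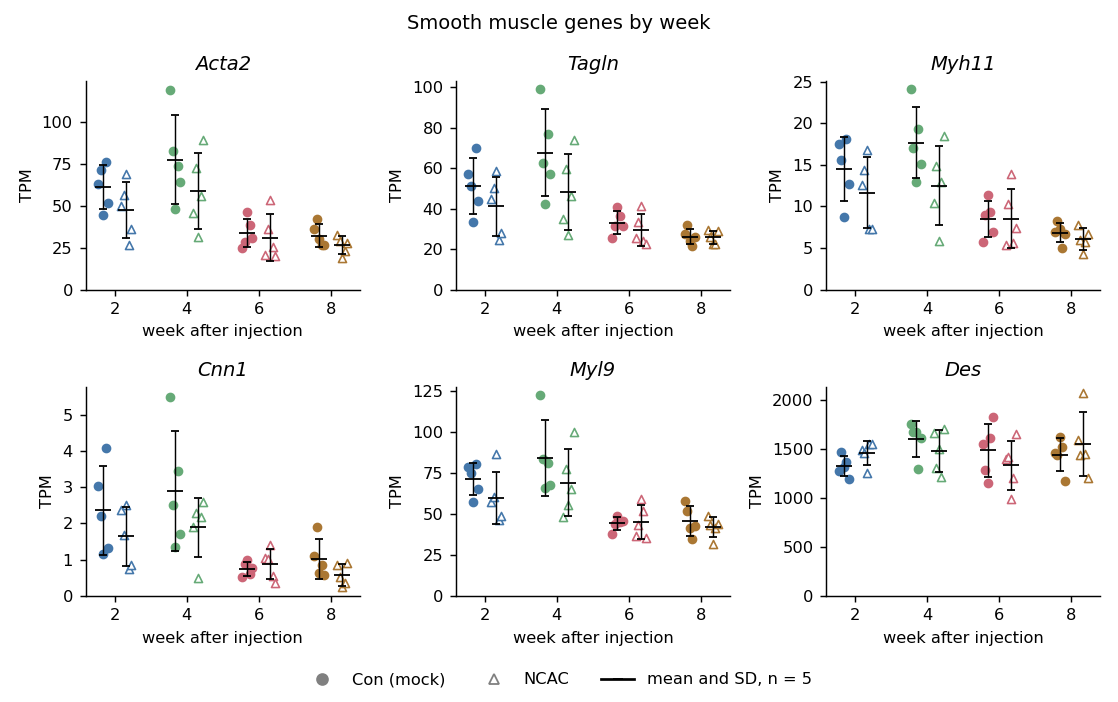
TPM of 6 genes in each library by week (x axis), for Con (filled circles) and NCAC muscle (open triangles), with the mean and SD of 5 libraries in black. In Con muscle Acta2, Tagln, Myh11, Cnn1 and Myl9 had no overlap between week 6 and week 4, while Des did.

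The NCAC libraries of the same weeks gave lower values in week 6 too, with overlap. Acta2 in NCAC muscle was at 19.9 to 53.2 TPM in week 6 and at 31.0 to 89.1 TPM in week 4 (log2 difference -0.91; limma adjusted p = 0.499). In NCAC muscle 1 gene was called in week 6 against week 4 (0.00868% of those tested; 872 at an unadjusted p under 0.05), Nqo1, a quinone reductase gene, which was higher by 0.62 (limma adjusted p = 0.011). That call was lost without NCAC week 4 replicates 2 or 3 or NCAC week 6 replicates 2 or 3. The change in Con minus the change in NCAC gave 0 called genes (0%; 996 at an unadjusted p under 0.05; lowest limma adjusted p = 0.541). For Acta2 the difference of the changes had an adjusted p of 0.853. All 28 genes that fell in Con had a change below 0 in NCAC, as did 59.1% of all tested genes. Of the 700 that rose in Con 620, or 88.6%, had a change above 0 in NCAC, as did 40.9% of all tested genes. The median NCAC changes were 0.11 for the 700 and -0.27 for the 28, against 0.34 and -0.56 in Con. The week 8 to week 2 change likewise gave 0 genes that differed between Con and NCAC (0%; 366 at an unadjusted p under 0.05).

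Most of the genes that rose in week 6 against week 4 had long transcripts. Ufl1, the ligase of the UFM1 ubiquitin-like modifier (chr4:25248600-25281821), was at 9.87, 9.29, 8.87, 9.80 and 9.18 TPM at week 2, 8.96, 9.79, 9.88, 8.40 and 8.39 TPM at week 4, 12.2, 12.6, 12.7, 12.8 and 12.7 TPM at week 6 and 11.1, 13.0, 11.2, 10.4 and 10.8 TPM at week 8. Week 6 lay above week 4 with no overlap (log2 difference 0.43, SE 0.0585; limma adjusted p = 0.00327). Ncor1, a nuclear receptor corepressor (chr11:62316426-62458541), was at 20.7 to 22.2 TPM in week 6 and at 16.3 to 18.2 TPM in week 4 (log2 difference 0.32, SE 0.0446; limma adjusted p = 0.00327). Ranbp2, a nuclear pore protein, stood 0.47 higher (limma adjusted p = 0.00327) and Zc3h6, a zinc finger gene, 0.70 higher (limma adjusted p = 0.00463). Week 8 lay between weeks 4 and 6 in the mean of Ufl1, at 11.3 ± 1.01 TPM, and of Ncor1, at 19.2 ± 1.07 TPM (SD, n = 5).

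**Figure D2:**
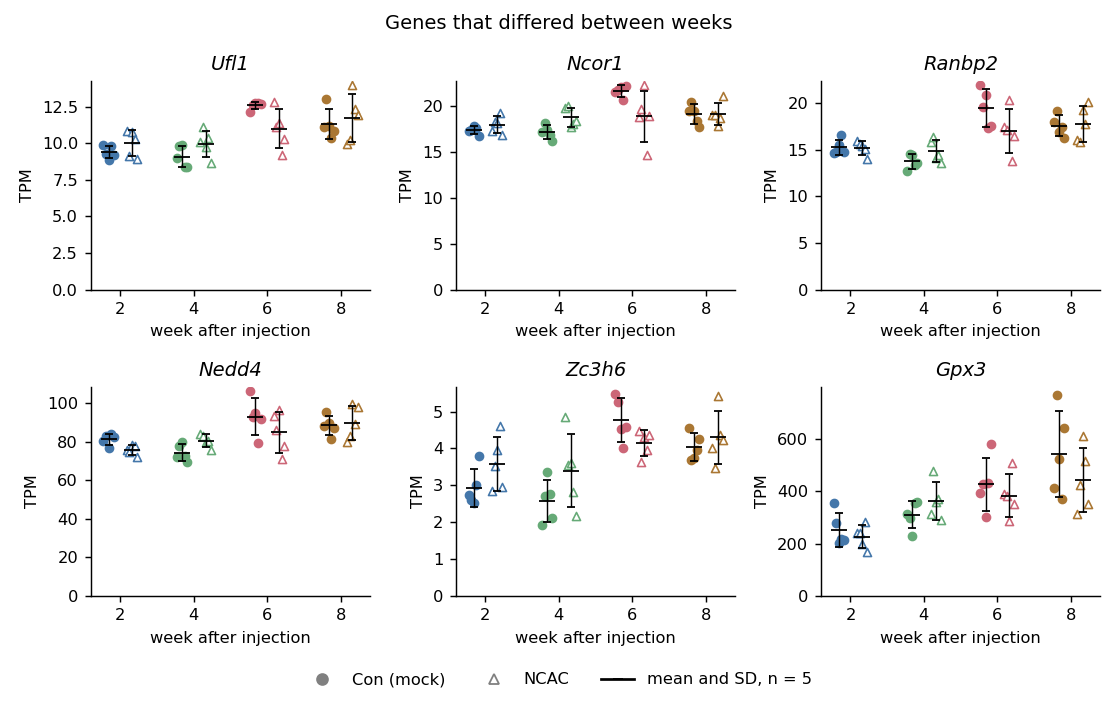
TPM of 6 genes in each library by week, for Con (filled circles) and NCAC muscle (open triangles), with the mean and SD of 5 libraries in black. Ufl1, Ncor1, Ranbp2, Nedd4 and Zc3h6 were higher in week 6 than in week 4 in Con muscle, and Gpx3 had its highest mean, 544 TPM, in week 8.

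Across 11149 tested genes with a known exon length, the week 6 minus week 4 change in Con muscle had a Pearson correlation with log2 length of 0.25, and in NCAC muscle of 0.14. These are correlations across genes, which are not independent replicates. Genes that rose had a median exon length of 8101 bases and those that fell one of 2902.5 bases, against 4315 bases over all. The longest quartile of genes held 406 of the rises and the shortest quartile 25, with median changes of 0.13 and 0.02. The slope of each library's log2 level on length, relative to the Con mean, had a median of 0.0241 per doubling of length in week 6 and -0.0173 in week 4, and single libraries ran between 0.000555 and 0.0479 in week 6 and between -0.0553 and 0.0197 in week 4. With that slope removed from every library, an alternative chosen after seeing the data, week 6 against week 4 called 123 genes, 77 higher and 46 lower, of which 101 were among the 728. The 4 smooth muscle list members were still called, as were Ufl1, Ranbp2 and Zc3h6, while Ncor1 (0.17 higher; limma adjusted p = 0.058) was not. Of the genes described below, Metrn kept its call there, and Acvr2a, Acvr2b, Insr, Nedd4, Hspa5, Hsp90b1, Jph1, Trdn, Hdac4, Acot2 and Rora lost theirs. The part of library length bias in the rises was otherwise not tested.

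**Figure D3:**
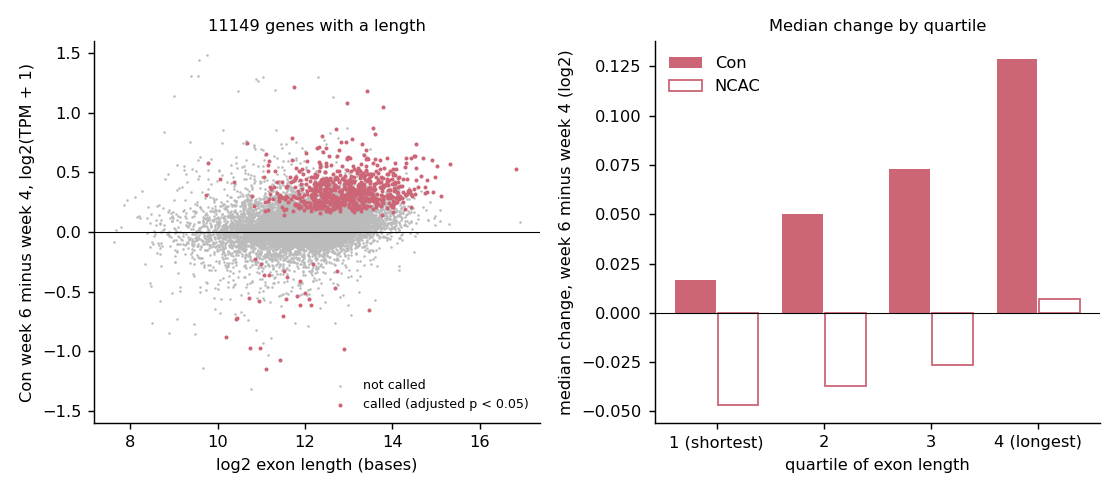
Left, the week 6 minus week 4 change in Con muscle on the log2(TPM + 1) scale against log2 exon length, 1 point per gene, with called genes in red (4 genes lie beyond the axis). Right, the median change by quartile of length, which in Con ran from 0.02 in the shortest to 0.13 in the longest, filled for Con and open for NCAC.

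Among genes of muscle growth and signalling, few members of the lists were called in week 6 against week 4. Of 21 genes of insulin, IGF and myostatin signalling 3 rose (6.07% of all tested genes rose), 0 fell and 18 were not called. These were the activin receptor genes Acvr2a (0.46) and Acvr2b (0.53), through which myostatin acts, and the insulin receptor gene Insr (0.31), with limma adjusted p of 0.0321, 0.0181 and 0.0212. Acvr2b was at 7.20, 5.94, 5.71, 4.69 and 6.31 TPM in week 6 and at 4.12, 5.44, 4.35, 2.95 and 2.68 TPM in week 4, so week 4 replicate 2 reached into the week 6 range. Of 15 muscle ubiquitin ligases Nedd4 alone rose, by 0.32 (limma adjusted p = 0.0105), and 14 were not called, near the 6.07% of all tested genes. With the length slope removed the changes were 0.36 for Acvr2a, 0.45 for Acvr2b, 0.16 for Insr and 0.18 for Nedd4 (limma adjusted p = 0.132, 0.0752, 0.191 and 0.0832). Without the libraries of skin or lymphoid genes Nedd4 kept its call (limma adjusted p = 0.0468), and Acvr2a, Acvr2b and Insr lost theirs (limma adjusted p = 0.104, 0.0717 and 0.072). With median-ratio scaling the calls of Acvr2a, Acvr2b, Insr and Nedd4 were lost (limma adjusted p = 0.106, 0.0639, 0.0779 and 0.0661). Those of Acvr2a, Acvr2b and Insr were also lost without week 6 replicate 1 or week 4 replicate 5, with Acvr2a lost as well without week 4 replicates 1 or 4 or week 6 replicates 2 or 3, Acvr2b without week 4 replicate 4 and Insr without week 6 replicate 3.

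Of 18 heat shock protein genes 2 rose in week 6 (6.07% of all tested genes rose), both endoplasmic reticulum chaperones. Hspa5 (BiP) was at 94.2, 82.6, 92.0, 99.5 and 114 TPM in week 6 and at 79.0, 70.7, 81.6, 78.9 and 68.2 TPM in week 4 (log2 difference 0.34; limma adjusted p = 0.0132). All week 6 libraries lay above all week 4 libraries. Hsp90b1 (GRP94) rose by 0.26 (limma adjusted p = 0.0233), and its call was lost without week 6 replicates 1, 3 or 5 or week 4 replicates 4 or 5. Of 17 calcium handling genes 2 rose, against the same 6.07%, Jph1, which ties the sarcoplasmic reticulum to the transverse tubules, by 0.40 and Trdn (triadin), of the calcium release complex, by 0.52. Of 15 neuromuscular junction and denervation genes, the class II histone deacetylase gene Hdac4 alone rose, by 0.32, against the same 6.07%. Of 13 exercise-linked and myokine genes, Metrn, the gene of the secreted factor meteorin, alone fell, by 0.41 (0.243% of all tested genes fell). The calls of Jph1, Trdn, Hdac4 and Metrn were lost without week 4 replicate 1 or week 6 replicate 1, with adjusted p up to 0.106. They were also lost without week 4 replicate 4 (each of them), week 4 replicate 5 (Jph1, Trdn and Hdac4), week 6 replicate 3 (Jph1, Trdn and Metrn) or week 6 replicate 2 (Jph1). With median-ratio scaling Metrn kept its call (limma adjusted p = 0.0429), and Hspa5, Hsp90b1, Jph1, Trdn, Hdac4 and Acot2 did not (0.0665 to 0.187). With the length slope removed the changes were 0.16 for Hdac4 (limma adjusted p = 0.382), 0.31 for Jph1, 0.39 for Trdn, 0.26 for Hspa5, 0.18 for Hsp90b1 and 0.62 for Acot2, none of them called. Without the libraries of skin or lymphoid genes Hspa5 kept its call (limma adjusted p = 0.0482), while those of Hsp90b1, Metrn, Jph1, Trdn, Hdac4 and Acot2 were lost (limma adjusted p between 0.056 and 0.125). Of 31 genes of fatty acid oxidation and uptake 1 rose and 30 were not called, against the 6.07% of all tested genes that rose. This was Acot2, a mitochondrial acyl-CoA thioesterase, which rose by 0.66 (limma adjusted p = 0.0498). Its call was lost in 15 of the 20 fits that left out 1 library.

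Most lists of muscle programmes held no gene called over the weeks. Of 38 lists, 29 held no gene called by the F test, where the background was 2.49%, though 2 of these (T cell and melanocyte) held no tested gene. They included the 10 fast and 8 slow sarcomere genes, 79 nuclear oxidative phosphorylation genes, 13 genes of the mitochondrial genome, 77 ribosomal protein genes, 22 genes of glycolysis and glycogen and 29 of fibrillar collagen and matrix. The median week 8 to week 2 change was -0.02 for oxidative phosphorylation, 0.07 for ribosomal proteins and -0.04 for collagen and matrix, against 0.03 over all tested genes. Col1a1, a collagen chain gene, was at 16.2 to 40.7 TPM in week 8 and at 26.4 to 194 TPM in week 2 (log2 difference -1.20, SE 0.396; limma adjusted p = 0.537). Col3a1 was at 27.4 to 69.6 TPM in week 8 and at 31.3 to 50.4 TPM in week 2.

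The share of TPM from the mitochondrial genome was 33.5 ± 3.02% in week 8 and 34.1 ± 0.82% in week 2 (SD, n = 5 each), a difference within the spread (exact two-sided permutation test, p = 0.786; smallest possible p 0.00794). Of the summed TPM of the 4 adult chains, Myh4 made up 84.2 ± 1.53% in week 8 and 81.9 ± 4.90% in week 2, Myh1 9.39 ± 1.04% and 10.3 ± 3.43%, Myh2 5.00 ± 0.549% and 6.40 ± 1.39%, and Myh7 1.39 ± 0.458% and 1.36 ± 0.406% (SD, n = 5 each). Over the 20 libraries Myh4 ranged from 76.0 to 88.4% and Myh7 from 0.754 to 2.33%.

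The 24 sentinel genes are readouts of atrophy, growth, fibre type, clock and matrix. Of these, 1 was called by the F test, against 2.49% of all tested genes. Trim63, the atrophy ubiquitin ligase MuRF1, was at 155, 147, 125, 109 and 121 TPM at week 2, 156, 172, 179, 202 and 203 TPM at week 4, 172, 173, 152, 162 and 163 TPM at week 6 and 155, 155, 132, 161 and 152 TPM at week 8 (limma adjusted p = 0.031). Every week 4 library stood above every week 2 library. The call was lost without week 2 replicate 3, week 2 replicate 5, week 4 replicate 4, week 4 replicate 5 or week 6 replicate 1 (adjusted p at most 0.0748). Of 10 alternatives other than leaving out 1 library, 7 also ended it, median-ratio scaling among them (limma adjusted p = 0.125). Fbxo32, the partner ligase atrogin-1, was at 37.8 to 89.5 TPM at week 2, 61.4 to 114 TPM at week 4, 70.2 to 112 TPM at week 6 and 77.2 to 93.6 TPM at week 8 (F test, limma adjusted p = 0.214). Mstn (myostatin) stayed between 14.2 and 41.8 TPM and Igf1 between 1.21 and 3.68 TPM over the 20 libraries.

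The F test also called Myod1, the myogenic transcription factor (limma adjusted p = 0.0453), and Ostn, the gene of the myokine osteocrin (limma adjusted p = 0.0486). Myod1 was at 9.74 to 15.2 TPM at week 2, 14.3 to 25.6 TPM at week 4, 18.0 to 31.0 TPM at week 6 and 11.4 to 17.6 TPM at week 8. Ostn was at 21.6 to 61.8 TPM at week 2, 22.8 to 52.7 TPM at week 4, 27.2 to 160.3 TPM at week 6 and 56.1 to 138 TPM at week 8. Leaving out 1 library ended the Myod1 call in 18 of 20 fits and the Ostn call in 16 of 20. Of 10 other alternatives, 8 ended each of these calls. Acot1, the cytosolic relative of Acot2, passed at a limma adjusted p of 0.0481. It was lost in 15 of 20 fits that left out 1 library and in 8 of 9 other alternatives.

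Libraries of the same week differed little in most genes. The median within-week standard deviation was 0.144 on the log2(TPM + 1) scale, a factor of 1.11, and 84.1% of the 11527 genes stood under 0.25. The least variable genes above 50 TPM were Sh3glb1 (0.0454), the voltage-dependent anion channel gene Vdac3 (0.0477), Vapb (0.0492), the mitochondrial RNA-binding protein gene Grsf1 (0.0499) and the last enzyme of haem synthesis, Fech (0.051). Vdac3 stayed between 569 and 644 TPM. Each library's root mean square deviation from its group mean was 0.202 ± 0.0231 in Con and 0.203 ± 0.0386 in NCAC (SD, n = 20 each), a difference of -0.00163 (two-sided permutation test within weeks, p = 0.886). In CAC muscle its mean was 0.281 over 22 libraries.

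The spread differed between gene groups. Genes of nuclear oxidative phosphorylation (median within-week SD 0.111), glycolysis and glycogen (0.117), ribosomal proteins (0.132) and fast sarcomere (0.133) stood under the median of all genes. Among lists with at least 5 tested genes, Schwann cell (0.725), red cell (0.683), adipocyte (0.651) and glucocorticoid response genes (0.564) stood highest. All 19 glucocorticoid response genes and all 24 sentinel genes lay above the median of all genes, as did 5763 of the 11527 tested genes. So did every tested member of several other lists. These included 29 fibrillar collagen and matrix, 23 lipid synthesis and 18 immediate early genes. Fkbp5, a glucocorticoid-induced co-chaperone of the glucocorticoid receptor, ran from 4.13 to 41.6 TPM over the 20 libraries, and Mt2, a metallothionein, from 6.82 to 126 TPM, both highest in week 4 replicate 5. Tsc22d3 (GILZ) ran from 32.4 to 180.3 TPM and was also highest there. Scd1, the desaturase of fatty acid synthesis, ran from 31.7 to 277 TPM and was highest in week 2 replicate 1. Fasn (61.3 TPM) and Acly (35.7 TPM) were at their highest in that library too.

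**Figure D4:**
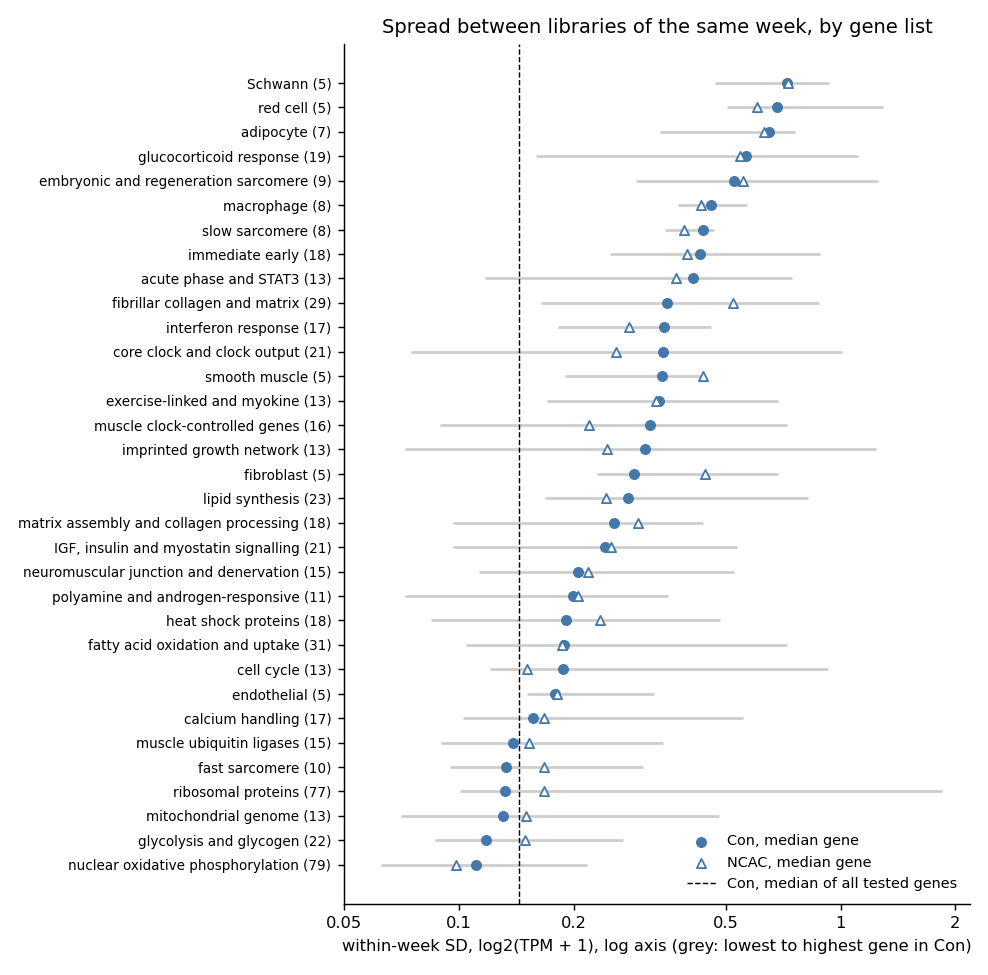
Median within-week standard deviation of log2(TPM + 1) for 33 gene lists with at least 5 tested genes (number in brackets), for Con (filled) and NCAC (open), with the lowest to highest gene in Con as a grey line. The dashed line marks the median of all tested genes in Con, 0.144.

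The slow fibre genes Myh7 and Tnnt1 varied together. Myh7 ran from 110.1 to 321 TPM and Tnnt1, the slow troponin T gene, from 189 to 495 TPM over the 20 libraries. Their deviations from the week means had a Pearson r of 0.94 and a Spearman rho of 0.92 (n = 20; permutation test, adjusted p = 4.5e-05 and 4e-05), and r was 0.91 without the 2 libraries farthest from the median. The 8 slow sarcomere genes had a median within-week SD of 0.437, against 0.133 for the 10 fast ones. Acta2 and Myh11 also varied together within weeks, with r of 0.86 and rho of 0.88 (n = 20; permutation test, adjusted p = 4.5e-05 and 3e-05) and r of 0.83 without the 2 farthest.

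Levels of clock genes ranged widely within each week. Arntl was at 9.75, 5.82, 5.33, 1.53 and 2.49 TPM at week 2, at 9.77, 7.83, 2.84, 3.69 and 4.42 TPM at week 4, at 4.80, 2.91, 3.57, 4.24 and 1.74 TPM at week 6 and at 6.01, 9.18, 2.56, 3.61 and 1.84 TPM at week 8. All 4 weeks overlapped, and the within-week SD of Arntl was 0.672 (F test over weeks, limma adjusted p = 0.822). Per2, a repressor of the clock, was at 2.26, 6.12, 5.09, 10.9 and 10.1 TPM in the week 2 libraries in the same order, so the library with the most Arntl had the least Per2 there. Over all 20 libraries the deviations of Arntl and Per2 had r of -0.88 and rho of -0.86 (n = 20; permutation test, adjusted p = 4.5e-05 and 0.000105; r -0.84 without the 2 farthest).

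Arntl deviations ran with those of its partner Clock (r 0.86, rho 0.90; n = 20; permutation test, adjusted p = 4.5e-05 and 3e-05; r 0.90 without the 2 farthest). They also ran with those of Nr1d1, the repressor REV-ERB alpha (r 0.65, rho 0.66; n = 20; permutation test, adjusted p = 0.00372 and 0.00529; r 0.69 without the 2 farthest). With Nfil3, a bZIP repressor of clock output, no relation passed (r -0.43, rho -0.42; n = 20; permutation test, adjusted p = 0.0773 and 0.0888; r -0.50 without the 2 farthest). These 6 relations, with the slow fibre and smooth muscle pairs, were all that were computed. Nr1d1 had the widest spread of the 21 tested clock genes, a within-week SD of 1.01, and ran from 16.3 to 156 TPM. Dbp, a clock output gene, was at 59.98 to 229.9 TPM and Ciart, another repressor, at 2.16 to 12.3 TPM.

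**Figure D5:**
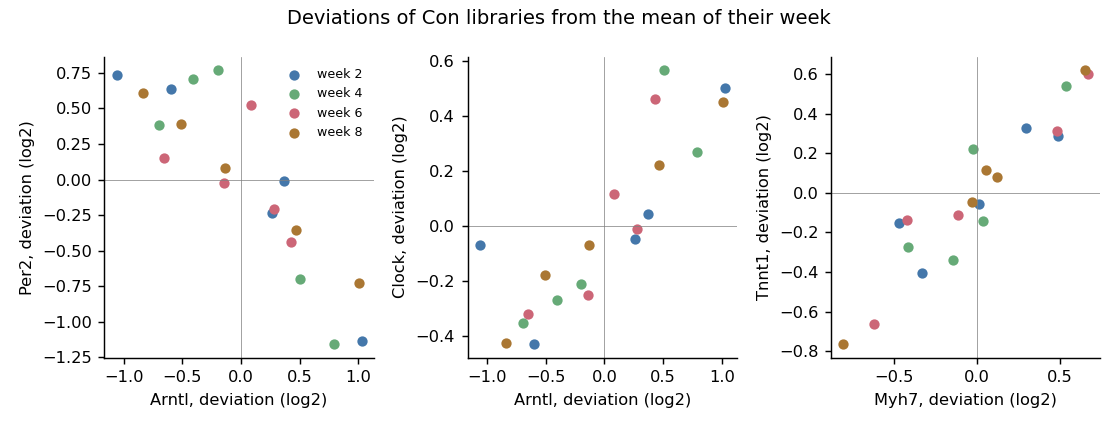
Deviation of each Con library from the mean of its week, on the log2(TPM + 1) scale, for Per2 and Clock against Arntl and for Tnnt1 against Myh7, 1 point per library, coloured by week. Per2 was lower where Arntl was higher (r -0.88), while Clock ran with Arntl (r 0.86) and Tnnt1 with Myh7 (r 0.94).

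Of the 21 tested clock genes 0 were called by the F test, against 2.49% of all tested genes. In week 6 against week 4, 2 of the 21 rose (6.07% of all tested genes rose). Rora, the activator of Arntl, was among them, higher by 0.50 in week 6 than in week 4 (limma adjusted p = 0.018). The Rora call was lost with median-ratio scaling (limma adjusted p = 0.0983), with the length slope removed (limma adjusted p = 0.135), without the libraries of skin or lymphoid genes (limma adjusted p = 0.0706) and without week 4 replicate 1 or week 6 replicates 1 or 3. Of 16 muscle genes under clock control Myod1 alone passed the F test, against 2.49% of all tested genes.

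The 39 genes with a within-week SD over 1 (0.338% of those tested) included genes of copied loci and of other tissues. Rps26 (SD 1.85) shares sequence with near copies, and how reads were split between copies is not given, so its level is uncertain. H2-Ea-ps (1.59) is annotated as a polymorphic pseudogene, and the cause of its spread was not tested. Rps26, a ribosomal protein gene, was at 247 to 638 TPM in 19 libraries and at 1.01 TPM in week 8 replicate 3. Krt10 (SD 1.49) and Krtdap (1.52), genes of differentiating skin, were at 277 and 188 TPM in week 6 replicate 1 and at most at 4.98 and 2.00 TPM elsewhere. Igkc (1.61) was at 67.3 TPM in week 8 replicate 1, 30.5 TPM in week 2 replicate 1 and 19.5 TPM in week 4 replicate 1. Hba-a2, an alpha globin gene with a near-identical copy, ran from 12.7 to 325 TPM, Arrdc2, an arrestin family gene, from 4.38 to 162 TPM, Odf3l2 from 1.00 to 123 TPM and Wnt8b from 0 to 13.5 TPM.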

How the data were processed

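Total RNA was extracted with Trizol, made into libraries with the TruSeq stranded mRNA kit and sequenced on the Illumina NovaSeq platform, per the labels' protocols. The authors deposited TPM per gene symbol for 62 libraries; the build was mm10, per the submitters' processing notes, and no source used here names the aligner or counter. All table columns matched a sample's title, and 0 were left unmapped. The authors' TPM are not counts, so reads were only estimated, from the steps of low values multiplied by exon length (GENCODE, mm10), which fell on whole multiples within 0.02 of a step in 71.5 to 79.3% of cases, against 4% at random. The length behind each gene in the authors' TPM may differ from that used here.

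Tests used limma 3.58.1 in R 4.3.3 on log2(TPM + 1) with a variance trend, over the 11527 genes with at least 1 TPM in at least 5 Con libraries, with Benjamini-Hochberg adjustment and a threshold of 0.05. Fold changes on this scale understate those of low genes. One fit of the 4 Con week means gave the F test and the pairs of weeks, a second the slope, and a fit of 40 libraries the contrasts with NCAC. The fits were tested on simulated data. Genes were named by rule: 24 sentinel genes, the 8 lowest p-values by trend and by the F test, up to 2 members per list, and the 10 highest and 5 lowest within-week SDs, the lowest SDs at a mean of at least 50 TPM. A few genes that the rule names are not reported here. Members and lists were chosen with earlier results of these data known. The Con and NCAC comparisons of week 6 against week 4, the smooth muscle count and further named genes of that comparison were added after seeing the data. Alternatives were another pseudocount, other filters, median-ratio scaling, removal of mitochondrial genes, array weights, a replicate block, fits on more or fewer libraries and leaving out each library.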

Additional observations from a re-analysis of the deposited data

Results flagged for a closer look

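Of 360 groups of 5 Con libraries checked, 30 (8.33%) had 1 library far from the other 4, where chance gives about 1 in 20. The 87 genes checked included those named for the highest within-week SD. The share and the counts per library therefore partly reflect how the genes were chosen. The library set apart is named with its value in each case, and the largest number of such values, 5, came from week 6 replicate 1. That library had 277 TPM of Krt10, 188 TPM of Krtdap, 10.2 TPM of Igf2, 12.2 TPM of Ufl1 (the lowest of its week) and a root mean square deviation from its week mean of 0.263. The part of skin tissue in its other values was not tested.

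Immune genes stood apart in several libraries. Week 8 replicate 1 had 97.4 TPM of H2-Ab1 and 67.3 TPM of Igkc, week 4 replicate 1 had 19.5 TPM of Igkc, and week 8 replicate 2 had the lowest Ighm of its week, 56.1 TPM. H2-Eb1 was at 0.256 TPM in week 6 replicate 4, against at least 15.7 TPM in the other week 6 libraries. Krtdap was at 1.21 TPM in week 4 replicate 5.

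Genes with near copies or of uncertain counting also stood out. Rps26 was at 1.01 TPM in week 8 replicate 3 and at 307 TPM in week 4 replicate 5, the lowest of each week. Acot1, a member of a cluster of related genes, was at 4.44 TPM in week 8 replicate 2.

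Each value below was the highest or the lowest among the 5 libraries of its own week, not over the 4 weeks. Among muscle genes, Myh8 was at 0.658 TPM in week 2 replicate 1 and at 90.9 TPM in week 8 replicate 4. Des was the lowest of its week in week 4 replicate 4, at 1291 TPM, and Fbxo32 in week 6 replicate 3, at 70.2 TPM, the library in which Ankrd1, a stress-responsive ankyrin repeat gene, was the highest of its week at 28.3 TPM. Mstn (31.0 TPM) and Insr (19.7 TPM) were the highest of their week in week 2 replicate 4, Eif3m in week 2 replicate 1 (56.0 TPM), Hsp90b1 in week 4 replicate 1 (48.3 TPM) and Ficd in week 8 replicate 3 (10.3 TPM). Igf2 was the lowest of its week in week 2 replicate 3, at 6.26 TPM, and Ppp1r14a in week 6 replicate 2, at 1.44 TPM.

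Nfil3 was the highest of its week in week 2 replicate 5 (26.2 TPM) and in week 8 replicate 5 (22.2 TPM), Odf3l2 in week 6 replicate 4 (25.05 TPM) and Scd1 in week 4 replicate 5 (191 TPM).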

How the results depend on the processing

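Week 4 against week 2, week 8 against week 6 and both differences between Con and NCAC gave 0 called genes under every alternative run. For the F test over weeks (287 genes) the count was 108 without a filter, 27 with median-ratio scaling, 123 without mitochondrial genes, 77 in a fit on all 62 libraries, 35 with the length slope removed, 6 without the libraries of skin or lymphoid genes, and 62 to 464 with 1 library left out. Week 6 against week 4 (728 genes) gave 171 with median-ratio scaling, 434 with array weights, 208 on all 62 libraries, 0 on both weeks alone, 123 with the length slope removed, 117 without the libraries of skin or lymphoid genes and 211 to 809 with 1 left out. The share of higher calls was 96.2%, against 72.5% with median-ratio scaling and 62.6% with the length slope removed. The trend (0 genes) gave 2 with a pseudocount of 0.1, 1 at TPM of at least 5, 4 with median-ratio scaling, 2 without mitochondrial genes, 19 with array weights, 4 with the length slope removed and 0 to 6 with 1 left out. Week 8 against week 2 gave 1, 4 and 1 with median-ratio scaling, array weights and the length slope removed, and 0 to 1 with 1 left out. The smooth muscle count of 4 was 0 on both weeks alone, 2 without the libraries of skin or lymphoid genes and 3 to 4 with 1 left out. It was 3 at TPM of at least 5, where Cnn1 was too low to be tested. The single NCAC call became 2 with median-ratio scaling, 0 on all 62 libraries and 0 to 3 with 1 left out. The cause of these moves was not tested.

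The difference in spread between Con and NCAC (-0.00163) was 0.00355 without a filter and ran from -0.00713 to 0.00908 with 1 library left out, with p between 0.185 and 0.996. The mitochondrial difference of -0.611 points ran from -1.22 to 0.621, and the within-week SD with a pseudocount of 0.1 was 2.80 for H2-Ea-ps and 2.83 for Wnt8b, while that of Vapb was 0.0850 with median-ratio scaling. Deviations of same-numbered libraries had correlations of -0.135 to 0.326 (median 0.064), with 21 of 30 pairs above 0 and 13 over 0.1, and since not every pair passed 0.1 the numbers are not taken as pairs. With the replicate number as a block the F test called 59 genes, the trend 1, week 6 against week 4 552, and week 8 against week 2 0, and the mitochondrial difference had an exact permutation p of 0.813. Depth is known only as an estimate, and 5 libraries per week limit what small changes can be called.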
